A study of Mus musculus with 3 samples.

Results

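The collagen gene family was described across the cells of mouse bladder and of bladder assembloids. Members were all mouse genes whose symbol is Col, a number, the letter a and a number, and Col17a1, the collagen of epithelial hemidesmosomes, was left out. The rule found 43 of 31053 mouse genes, and all 43 were annotated as protein coding, on 14 chromosomes. By structure, 11 were fibrillar, 6 were basement membrane network, 6 were beaded filament and 9 were FACIT chains, which attach to fibrils. A further 2 were multiplexins, 4 network and anchoring chains, 3 transmembrane chains and 2 others.

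Collagens are secreted proteins whose chains wind into helices. Fibrillar collagens form the tensile fibres of connective tissue, type IV collagens form the sheet under epithelium and around vessels, muscle and nerve, and the remaining types attach to, organise or anchor those assemblies. In the bladder wall, fibroblasts and smooth muscle lay down most of the interstitial matrix, which carries the load when the organ fills.

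Single-cell libraries (10x 3′ version 3 chemistry, enzymatic dissociation, polyA RNA) had been made from 3 groups, with 1 library a group. The 7-day assembloids and the 1-day assembloids were each pooled from 3 constructs, taken 7 days and 1 day after they had been put together from cultured bladder cells. An assembloid joins epithelial organoids with stromal cells in culture. The adult bladder library was a pool of 8 wild-type bladders of C57BL/6 mice aged 8 to 9 weeks. The strain and age of the donors of the assembloids are not given in the labels, and no transgene or drug is named for any group. With 1 library a group no test was possible, so differences below compare libraries, and intervals in brackets are exact 95% intervals that cover counting error only.

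The 7-day, 1-day and bladder matrices held 120301672, 135955678 and 93560608 UMIs (unique molecules counted at the 3′ end of transcripts). After filtering, 8173, 8259 and 6787 mouse cells were kept, with medians of 9390.0, 14940.0 and 7529 UMIs, and 53, 45 and 44 of them had a barcode sequence that another library also held. Clusters were made with every collagen left out and were named from markers. All 16 urothelial markers were found in the urothelial-like cells of each library, with sums of 23262.5, 16042 and 25759 CPM (UMIs scaled to the same total in every class and library) at 7 days, 1 day and in bladder. The same class lay in different clusters of different libraries: fibroblast-like cells were cluster 7 at 1 day (204 cells) and clusters 2 and 17 in bladder (1049 and 407 cells), and the 7-day library had cells of all 3 (897, 605 and 207). The fibroblast markers summed to 9946, 5513 and 36132 CPM in the 7-day, 1-day and bladder cells of that class, and 12 smooth muscle markers to 10989, 19571 and 336 CPM, of which Pcp4 was at 0 at 1 day. Their part in the differences of fibroblast-like cells was not tested. Clusters 0, 3, 4, 8, 9, 19 and 29 took no name, and unnamed cells were 28.5% of the 7-day, 62.3% of the 1-day and 0.0884% of the bladder library. Some 7-day cells had almost only 1-day cells among their nearest cells of the other libraries (assembloid-side) and some almost only bladder cells (bladder-side), and 7-day values are also given by side, a split chosen after seeing the data. Of the 8173 kept 7-day cells 53.2% (4352) were assembloid-side, 43.9% (3587) bladder-side and 234 neither, and of the 1709 fibroblast-like cells 888 and 800 were assembloid-side and bladder-side. Whether cells of adult bladder entered the 7-day library is not given in the labels and was not tested.

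Collagen transcripts took the highest share of UMIs in fibroblast-like cells, at 2.28% [2.27 to 2.28] at 7 days, 1.89% [1.87 to 1.90] at 1 day and 4.01% [3.996 to 4.02] in adult bladder. Within the 7-day library the share was 2.09% in assembloid-side and 3.81% in bladder-side fibroblast-like cells. Glia-like cells came next among the named classes, with 0.863%, 0.808% and 1.55% at 7 days, 1 day and in bladder. Mesothelial-like cells had 0.717% at 1 day and 1.01% in bladder. In these 3 classes the bladder library had the highest share of the libraries measured. The bladder library had the lowest share in endothelial-like cells, with 0.217%, 0.202% and 0.127%, and in urothelial-like cells, with 0.0284%, 0.0398% and 0.0120%. Among the unnamed clusters, the share was 1.79% at 7 days and 1.495% at 1 day in cluster 0 (leading genes Tnfsf15 and Aldh1a3), 0.906% and 0.886% in cluster 3 (Spp1 and Gzme), and 0.740% and 0.717% in cluster 4 (Crabp1 and Acta1).

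**Figure D1:**
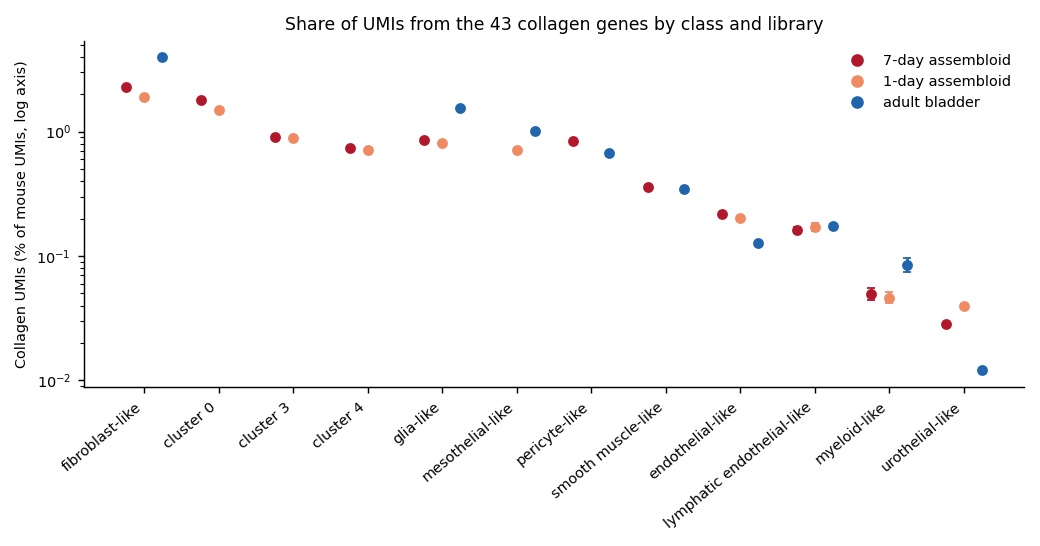
Share of a class's or cluster's mouse UMIs that came from the 43 collagen genes (percent, log axis), with the 7-day library left, the 1-day library in the middle and adult bladder right; bars are 95% intervals for counting error. Fibroblast-like cells lie highest, at 2.28%, 1.89% and 4.01%, and urothelial-like cells lowest, at 0.0284%, 0.0398% and 0.0120%.

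Of the 43 members, 30 reached at least 20 CPM in a class or unnamed cluster of at least 50 cells and are described. The other 13 stayed between 0.178 and 17.95 CPM at their highest over those classes and clusters: Col2a1, Col11a2, Col24a1, Col6a4, Col6a6, Col9a1, Col9a2, Col19a1, Col20a1, Col22a1, Col10a1, Col25a1 and Col26a1. Among them are the cartilage chains Col2a1 and Col10a1. Within a named class, Col25a1 reached 61.8 CPM [44.3 to 83.8] from 41 UMIs in the 71 bladder cells of cluster 25, a smooth muscle-like cluster. Because 1 UMI stands for 1 transcript end whatever the transcript's length, CPM values of different genes do not scale with length. Whether genes differed in capture or counting was not tested, so ratios between genes below are ratios of UMIs.

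**Figure D2:**
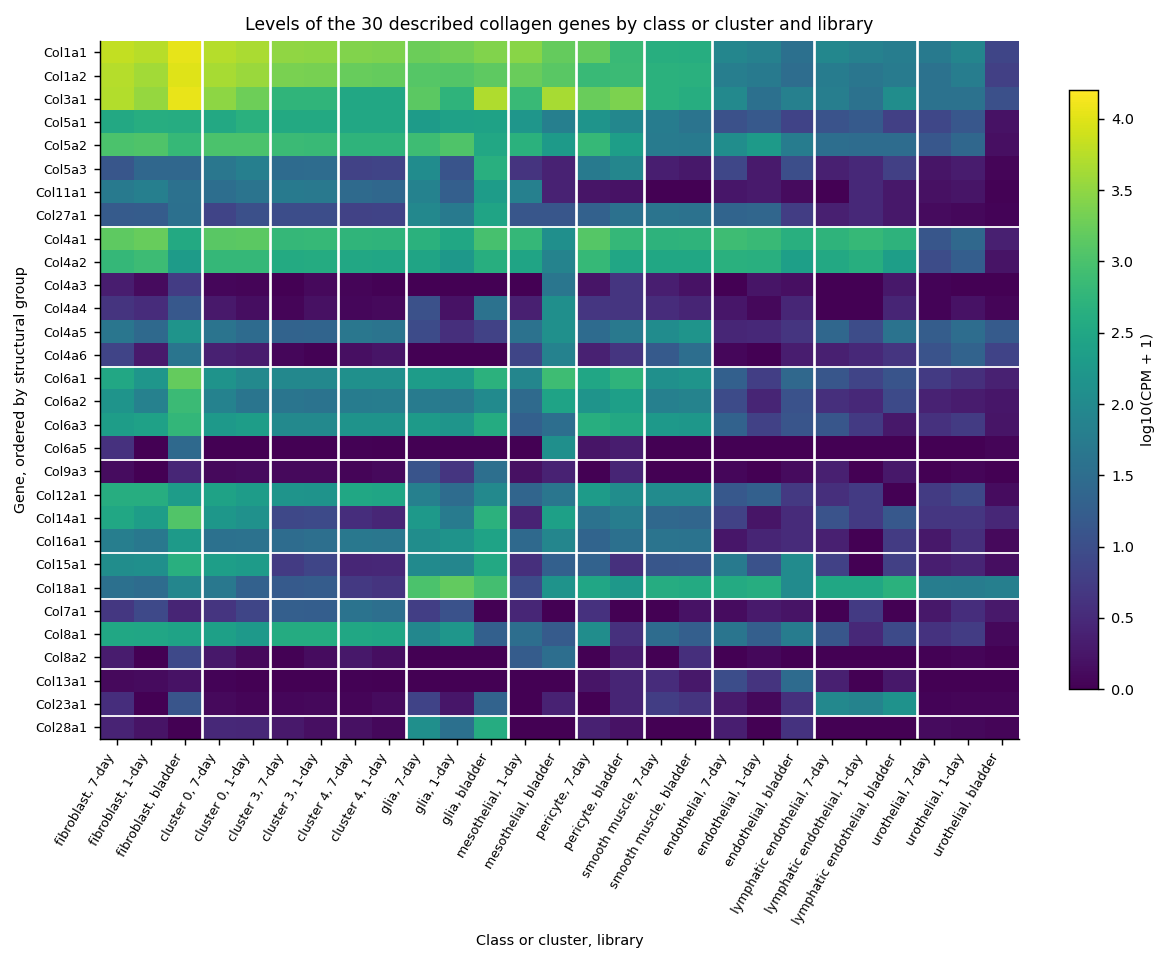
Level of each of the 30 described members, as log10(CPM + 1), by class or cluster, with 7-day columns left of 1-day columns and these left of bladder columns. The rows of Col1a1, Col1a2 and Col3a1 at the top are brightest in fibroblast-like cells, Col18a1 is bright in glia-like and endothelial-like columns, and Col28a1 lights only glia-like columns.

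A member or gene was called higher or lower where its CPM differed by at least 2-fold, with an interval that excluded equality, among genes whose larger CPM of the pair was 20 or more. Between 1-day and bladder fibroblast-like cells, 3 of 22 measured members were called higher and 13 lower, beside 15.6% of 6411 measured genes called higher and 16.6% lower, and the members' median log2 ratio was -1.25 against 0.13 over all genes. In glia-like cells 2 of 23 were higher and 16 lower at 1 day, beside 14.7% and 20.1% of all genes, with a median of -1.57 against 0.05. In mesothelial-like cells 5 of 22 were higher and 12 lower, beside 18.7% and 27.6%, with a median of -1.36 against -0.12. In endothelial-like cells 4 of 12 were higher and 4 lower, beside 24.7% and 23.5%, with a median of 0.69 against 0.13. In lymphatic endothelial-like cells 0 of 9 were higher and 2 lower, beside 15.1% and 16.1%. A measured member is one that passed the level filter in at least 1 of the 2 libraries compared, so these counts describe the members that passed and not the family. The libraries compared held each class in different clusters, except the lymphatic class: glia-like cells were cluster 13 at 1 day (705 cells) and cluster 20 in bladder (287), endothelial-like cells were cluster 14 at 1 day (392) and clusters 10 and 18 in bladder (572 and 349), and mesothelial-like cells were cluster 23 at 1 day (161) and cluster 26 in bladder (51 of 52).

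**Figure D3:**
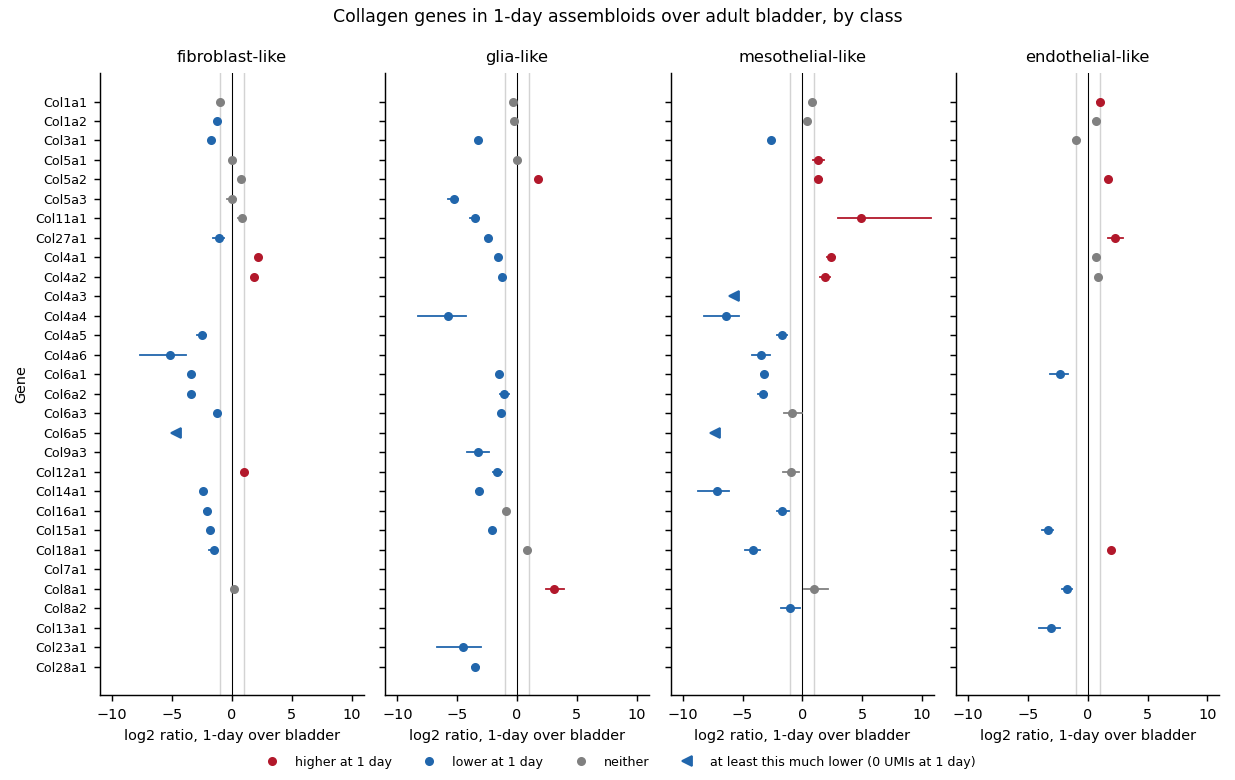
Log2 ratio of each measured member in 1-day assembloids over adult bladder, by class, with 95% counting intervals. Grey lines mark 2-fold and triangles mark genes with 0 UMIs at 1 day, drawn at the fold that a floor of 3 counts gives. Type IV chains Col4a1 and Col4a2 lie right of 0 in fibroblast-like cells (2.23 and 1.89) and left of 0 in glia-like cells (-1.57 and -1.29).

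The fibrillar chains were the most abundant members, and in fibroblast-like cells their sum was 14802 CPM at 1 day and 33984 CPM in bladder, a log2 ratio of -1.199. Col3a1, the chain of type III collagen in compliant tissues, had 5153, 3399 and 11556 CPM in 7-day, 1-day and bladder fibroblast-like cells. It was lower at 1 day than in bladder, with a log2 ratio of -1.77 [-1.80 to -1.74], and among bladder-side cells of the 7-day library it was at 11201 CPM. Col1a2, the second chain of type I collagen, had 5449, 4139 and 10012 CPM and was also lower at 1 day (log2 ratio -1.27 [-1.30 to -1.25]). Col1a1, its partner chain, had 6630.1, 5638 and 11255 CPM, and its log2 ratio of -0.997 [-1.02 to -0.97] between 1 day and bladder just missed the 2-fold call, whereas that of Col1a2 passed. With median-of-ratios scaling, which subtracts 0.28 from every log2 ratio of this comparison, that of Col1a1 was -1.27 and passed too. The bladder library was highest for all 3 genes.

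The minor fibrillar chains, apart from Col27a1, did not follow the major ones. Col5a1 and Col5a2, which join type I fibrils and set their width, had 338, 413 and 403 CPM and 1040.1, 1108 and 659.8 CPM in the same 3 groups of fibroblast-like cells, and neither was called between 1 day and bladder (0.03 [-0.06 to 0.13] and 0.75 [0.69 to 0.81]). Col11a1, a related nucleator known best from cartilage, had 51.5, 63.3 and 36.0 CPM and was not called. Col5a3 had 12.2, 23.9 and 24.3 CPM. Col27a1, a fibrillar chain best known from cartilage, had 14.9, 15.9 and 34.6 CPM and was lower at 1 day than in bladder (log2 ratio -1.11 [-1.60 to -0.67]). Of the 8 described fibrillar chains, 3 were lower at 1 day (Col1a2, Col3a1 and Col27a1) and 0 higher, with log2 ratios from -1.77 to 0.82.

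In glia-like cells, which hold Schwann-type markers, type I and type III chains parted. Col3a1 had 1361, 545 and 5095 CPM at 7 days, 1 day and in bladder, lower at 1 day than in bladder (log2 ratio -3.23 [-3.30 to -3.16]), while Col1a1 had 1814, 1988 and 2527 CPM and was not called (-0.35 [-0.41 to -0.28]). Col5a3, a minor chain of type V collagen, had 110.1, 11.3 and 454 CPM, the strongest fibrillar decrease at 1 day, -5.31 [-5.75 to -4.92]. Col11a1 had 72.8, 17.8 and 207 CPM and Col27a1 88.9, 51.0 and 279 CPM, both lower at 1 day (-3.53 [-3.92 to -3.16] and -2.45 [-2.71 to -2.19]). Col5a2 went the other way, with 783, 1101 and 331 CPM, higher at 1 day (log2 ratio 1.73 [1.56 to 1.91]). The glia markers summed to 3218, 2483 and 10794 CPM in these cells, and all 11 had UMIs in each library. The fibroblast markers summed to 825, 897 and 391 CPM, with Clec3b the 1 of 12 at 0 and only at 1 day, and smooth muscle markers to 3490.3, 1974 and 282 CPM, and their part in these differences was not tested.

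Mesothelial-like cells, which line the outer surface of the organ, had 714 CPM of Col3a1 at 1 day and 4509.6 CPM in bladder (-2.66 [-2.73 to -2.58]), whereas Col1a1 had 2827 and 1633 CPM and was not called. Col5a1 and Col5a2 were both higher at 1 day, at 157 against 62.9 CPM (1.30 [0.86 to 1.81]) and 489 against 195 CPM (1.32 [1.07 to 1.60]). Col11a1 had 67.4 CPM at 1 day and 1 UMI in bladder, a log2 ratio of 4.87 [2.96 to 10.77]. The mesothelial markers summed to 394 CPM at 1 day and 6967 CPM in bladder, with all 7 present in both. The fibroblast markers summed to 2170.4 and 17141 CPM, with Dpt and Clec3b at 0 at 1 day, and the smooth muscle markers to 11216 and 1834 CPM, with Pcp4 at 0 in both and Myocd at 1 day, and their part was not tested.

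Upstream sequence is shown for Col1a2 and Col3a1 because these 2 abundant fibrillar genes were both called lower at 1 day in fibroblast-like cells and have a window. Each stretch is the part of the RefSeq promoter window (GRCm38.p6, 250 bases before to 50 after a start) that lies outside annotated exons, and capitals mark matches on either strand to the TATA box (TATAAA), the CAAT box (CCAAT), the GC box (GGGCGG) or the core of the hypoxia response element (ACGTG). Col1a2 is on the plus strand at chr6:4505370-4505492 and Col3a1 on the plus strand at chr1:45311288-45311537.

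Col1a2: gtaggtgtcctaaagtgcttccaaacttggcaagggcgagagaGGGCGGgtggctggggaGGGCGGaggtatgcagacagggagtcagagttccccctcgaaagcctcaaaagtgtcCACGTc

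Col3a1: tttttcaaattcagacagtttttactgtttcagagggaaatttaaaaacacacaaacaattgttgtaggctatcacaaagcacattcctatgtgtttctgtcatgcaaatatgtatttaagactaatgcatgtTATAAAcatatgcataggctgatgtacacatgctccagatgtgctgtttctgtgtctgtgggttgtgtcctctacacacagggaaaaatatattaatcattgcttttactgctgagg

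The Col1a2 stretch had 2 matches to GGGCGG and 1 to ACGTG, read as CACGT, with 59.3% G and C, and the Col3a1 stretch had 1 TATAAA with 35.2% G and C. The rest of the Col1a2 window, not shown, holds a CCAAT match. A window was given for 34 of the 43 members, 37 windows in all, and none for Col12a1, Col14a1, Col1a1, Col22a1, Col26a1, Col2a1, Col4a3, Col5a2 and Col9a3. GGGCGG was in 62.2% of the members' windows and 35.7% of all 32851 windows, CCAAT in 32.4% and 37.4%, TATAAA in 10.8% and 13.6%, and ACGTG in 13.5% and 19.6%. These matches are letters in a window and say nothing of binding.

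The basement membrane chains split into pairs. Col4a1 and Col4a2, the chains of the ubiquitous type IV molecule, were higher in 1-day than in bladder fibroblast-like cells. Col4a1 had 1414, 1677 and 358 CPM at 7 days, 1 day and in bladder, and Col4a2 had 636, 744 and 201 CPM, with log2 ratios at 1 day over bladder of 2.23 [2.16 to 2.29] and 1.89 [1.80 to 1.98]. Col4a5 and Col4a6, the pair of smooth muscle and epithelial basement membranes, were lower in the same cells. Col4a5 had 43.6, 26.3 and 151 CPM and Col4a6 6.30, 1.04 and 42.3 CPM, with log2 ratios of -2.51 [-2.87 to -2.19] and -5.13 [-7.63 to -3.79], Col4a6 resting on 3 UMIs at 1 day. In fibroblast-like cells the sum of the 6 type IV genes was 2451 CPM at 1 day and 770.4 CPM in bladder.

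Other classes gave other directions for Col4a1 and Col4a2, and the difference between classes was not tested. In glia-like cells Col4a1 had 477, 317 and 943 CPM and Col4a2 284, 172 and 422 CPM, both lower at 1 day than in bladder (-1.57 [-1.69 to -1.45] and -1.29 [-1.47 to -1.11]). In mesothelial-like cells Col4a1 had 625 CPM at 1 day against 121 CPM in bladder, higher (log2 ratio 2.36 [2.04 to 2.71]). In endothelial-like cells, for which type IV collagen is a main product, Col4a1 had 777, 712 and 453 CPM and Col4a2 454, 437 and 234 CPM, and neither reached 2-fold between 1 day and bladder (0.65 [0.58 to 0.73] and 0.90 [0.80 to 1.002]). Assembloid-side endothelial-like cells of the 7-day library had 945 CPM of Col4a1, higher than bladder (log2 ratio 1.06 [0.98 to 1.13]). Pericyte-like cells had 1213 CPM at 7 days and 634 CPM in bladder, and smooth muscle-like cells 526 and 547 CPM.

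Col4a3 and Col4a4, the chains best known from the kidney glomerulus, had their highest levels in bladder mesothelial-like cells, at 42.98 and 124 CPM. That class held 28 of the 80 Col4a3 and 81 of the 261 Col4a4 UMIs of kept bladder cells. In 1-day mesothelial-like cells Col4a3 had 0 UMIs, and Col4a4 had 1.34 CPM from 5 UMIs (-6.41 [-8.20 to -5.26]). Taking 3 UMIs in that class as the floor puts Col4a3 53.6-fold lower than in bladder, a value that leaves out counting error. Col4a5 and Col4a6 were lower there too, at 37.7 against 126 CPM (-1.74 [-2.14 to -1.33]) and 6.42 against 70.6 CPM (-3.45 [-4.24 to -2.72]). All 4 of these minor chains were thus lower in the 1-day class while Col4a1 and Col4a2 were higher. Bladder glia-like cells had 37.5 CPM of Col4a4, against 0.607 CPM from 3 UMIs at 1 day (-5.75 [-8.30 to -4.28]).

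Each type IV pair lies head to head in the genome (mm10, GENCODE vM21). Sequences near the starts are shown because Col4a1 and Col4a2 differed from Col4a5 and Col4a6 in how closely their levels went together. Whether the distance between starts has a part in this was not tested. The starts of Col4a1 (minus strand) and Col4a2 (plus strand) on chromosome 8, at 11312826 and 11312805, lie 21 bases apart, and their first exons overlap by 22 bases, in capitals in a stretch at chr8:11312801-11312830, minus strand. Col4a4 (minus) and Col4a3 (plus) on chromosome 1 start 72 bases apart, and the stretch between is chr1:82586850-82586920, minus strand, with no match to the motifs above. Col4a6 (minus) and Col4a5 (plus) on chromosome X start 1309 bases apart, and the stretches shown are upstream of each, chrX:141474077-141474326 on the minus strand and chrX:141475169-141475384 on the plus strand, with motif matches in capitals (CCGCCC, the reverse of GGGCGG, and CCAAT). The letters are those of the RefSeq windows, GRCm38.p6.

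Col4a1: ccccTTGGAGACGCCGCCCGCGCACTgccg

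Col4a4: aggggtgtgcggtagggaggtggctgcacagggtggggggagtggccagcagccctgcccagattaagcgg

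Col4a6: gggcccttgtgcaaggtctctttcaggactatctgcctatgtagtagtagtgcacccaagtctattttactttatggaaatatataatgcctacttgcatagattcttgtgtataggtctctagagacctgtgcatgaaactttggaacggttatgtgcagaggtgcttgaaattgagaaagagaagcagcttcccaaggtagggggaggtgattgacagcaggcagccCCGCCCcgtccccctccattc

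Col4a5: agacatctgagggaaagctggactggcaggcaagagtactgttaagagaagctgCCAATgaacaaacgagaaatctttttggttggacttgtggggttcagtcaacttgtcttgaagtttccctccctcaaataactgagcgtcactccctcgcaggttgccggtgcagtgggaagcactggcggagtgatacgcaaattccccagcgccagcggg

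Over 52 sums of a cluster in a library, which share libraries and depth, log2 levels of Col4a1 and Col4a2 had a Pearson r of 0.993, and those of Col4a5 and Col4a6 of 0.705, given as a description. Some Col4a6 sums were at 0, and the part of counting error in its lower r was not tested. No r was made for Col4a4 and Col4a3. Their UMIs were 81 and 28 in bladder mesothelial-like cells, a ratio of 2.89 [1.86 to 4.62], and 33 and 0 in bladder glia-like cells. The ratio of Col4a1 to Col4a2 UMIs stayed between 1.40 and 2.32 in the 31 sums of a class or unnamed cluster deep enough to give it, with a median of 1.76. The ratio of Col4a5 to Col4a6 ran from 1.47 to 366 over 17 sums, with a median of 19.1. It was lowest in 1-day urothelial-like cells, at 1.47 (within that class, 1.13 at 7 days and 1.32 at 1 day in cluster 5), and was 25.3 in 1-day and 3.57 in bladder fibroblast-like cells. The first exons of Col4a1 and Col4a2 overlap on opposite strands and 18 members overlap a gene of the other strand somewhere, and whether the authors' counting used strand is not given in the sources used here.

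**Figure D4:**
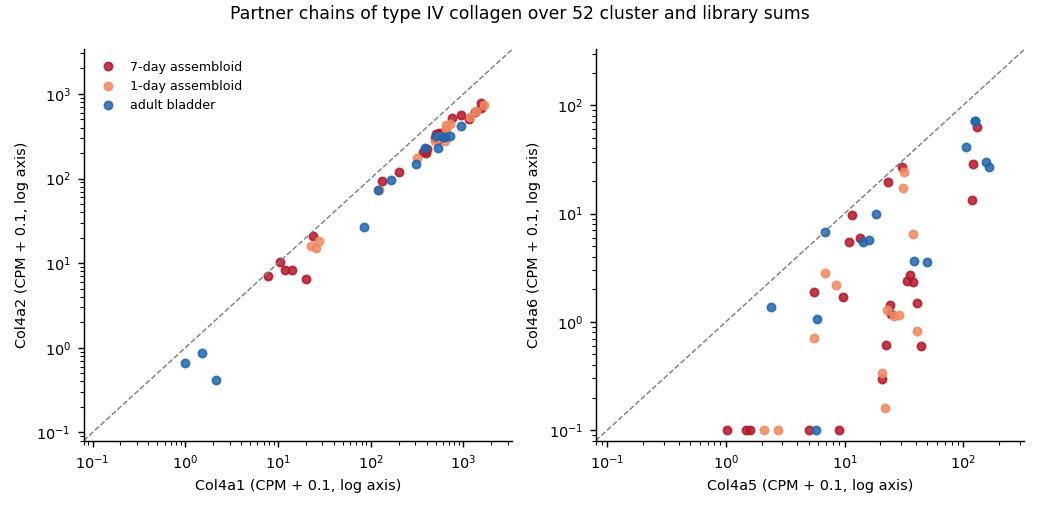
Levels of partner type IV chains over 52 sums of a cluster in a library (CPM + 0.1, log axes), with 7-day, 1-day and bladder sums coloured; the dashed line marks equal levels. Col4a1 and Col4a2 follow 1 line below equality (r = 0.993), whereas Col4a5 and Col4a6 scatter (r = 0.705), with sums at 0 for Col4a6 drawn at 0.1.

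The beaded filament chains of type VI collagen, which surround cells and link them to the interstitial matrix, had the largest difference of the 6 group sums in fibroblast-like cells, 479 CPM at 1 day against 2975 CPM in bladder, a log2 ratio of -2.64. Col6a1 had 334, 157 and 1624 CPM at 7 days, 1 day and in bladder, and Col6a2 146, 69.2 and 723 CPM, lower at 1 day than in bladder (log2 ratio -3.37 [-3.51 to -3.24] and -3.38 [-3.60 to -3.18]). Their partner Col6a3 had 218, 252 and 593 CPM and was lower (log2 ratio -1.23 [-1.35 to -1.12]), less than the other 2 chains, whose intervals it does not overlap. Col6a5 had 0 UMIs at 1 day and 26.1 CPM in bladder, 25.1-fold lower with 3 UMIs taken as the floor and counting error left out. In mesothelial-like cells Col6a1 had 82.1 CPM at 1 day against 772 CPM (-3.23 [-3.44 to -3.03]) and Col6a5 0 against 124 CPM, 155-fold lower by the same floor. In glia-like cells the 3 main chains were lower too, with log2 ratios of -1.53 [-1.69 to -1.36], -1.06 [-1.41 to -0.69] and -1.31 [-1.497 to -1.12].

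Among the FACIT chains, Col14a1, which binds type I fibrils and limits their growth, had 313, 219 and 1132 CPM in fibroblast-like cells of the 7-day, 1-day and bladder libraries and was lower at 1 day than in bladder (log2 ratio -2.37 [-2.49 to -2.26]). Col16a1, found near fibrils and basement membranes, had 62.6, 46.7 and 195 CPM and was lower (log2 ratio -2.06 [-2.33 to -1.81]). Col12a1, a chain of tissues under tension, went the other way, with 418, 415 and 207 CPM, higher at 1 day (log2 ratio 1.000 [0.89 to 1.11]), at the edge of the 2-fold call, and 0.72 and not called with median-of-ratios scaling. In glia-like cells Col12a1 was lower at 1 day, at 29.97 against 94.4 CPM (-1.66 [-2.05 to -1.25]), and so were Col14a1, at 54.7 against 505 CPM (-3.21 [-3.43 to -2.99]), and Col9a3, a cartilage chain, at 3.44 against 33.0 CPM (-3.24 [-4.22 to -2.35]). In mesothelial-like cells Col14a1 had 1.60 CPM from 6 UMIs at 1 day against 246 CPM in bladder (-7.15 [-8.73 to -6.10]). Col14a1 was thus lower at 1 day in all 3 of these classes.

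The multiplexins Col15a1 and Col18a1 are basement membrane proteoglycans whose C-terminal fragments restrain vessel growth, that of Col18a1 being endostatin. Col15a1 was lower at 1 day than in bladder in fibroblast-like cells, at 124 against 443 CPM (-1.83 [-1.995 to -1.68]), in glia-like cells, at 83.02 against 346 CPM (-2.06 [-2.28 to -1.84]), and in endothelial-like cells, at 10.5 against 107 CPM (-3.34 [-3.84 to -2.90]). Col18a1 was highest in glia-like cells, with 1024, 1535 and 868 CPM at 7 days, 1 day and in bladder, and was not called there (0.82 [0.72 to 0.93]). In endothelial-like cells Col18a1 had 369, 417 and 106 CPM, higher at 1 day than in bladder (log2 ratio 1.97 [1.84 to 2.10]). It was lower at 1 day in fibroblast-like cells, at 29.1 against 83.8 CPM (-1.52 [-1.87 to -1.200]), and in mesothelial-like cells, at 8.02 against 143 CPM (-4.14 [-4.80 to -3.55]). In endothelial-like cells Col18a1 was thus higher and Col15a1 lower. The endothelial markers summed to 7038, 7669.6 and 8277 CPM in these cells, the smooth muscle markers to 1309.6, 1673 and 517 CPM and the pericyte markers to 184, 13.9 and 392 CPM, with Notch3 and Kcnj8 of 10 at 0 at 1 day, and their part was not tested.

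Col8a1, a network chain of vessel walls and of the cornea, had 321, 308 and 270.2 CPM in fibroblast-like cells and was not called. It was higher at 1 day in glia-like cells, at 160.2 against 18.2 CPM (3.09 [2.43 to 3.95]), and lower in endothelial-like cells, at 17.4 against 57.6 CPM (-1.72 [-2.12 to -1.35]). Pericyte-like cells had 115 CPM at 7 days against 2.87 CPM in bladder (5.19 [4.07 to 6.97]). The assembloid-side pericyte-like cells had 163 CPM and the bladder-side ones 16.8 CPM. In that class 4 of 18 members were higher at 7 days and 0 lower, beside 10.7% and 12% of genes, the other 3 being Col1a1 (log2 ratio 1.199 [1.10 to 1.30]), Col5a2 (1.57 [1.40 to 1.75]) and Col4a2 (1.06 [0.90 to 1.21]). Of the 2261 Col1a1 UMIs of the 7-day class, 1716 were in its 61 assembloid-side cells and 277 in its 198 bladder-side cells. The 438 pericyte-like cells of bladder had 1243, so the call of Col1a1 rests mainly on the assembloid side. The pericyte markers summed there to 3150.2 CPM at 7 days and 6887 CPM in bladder, and the smooth muscle markers to 28445 and 12084 CPM, and their part was not tested. Col8a2 had its highest level in bladder mesothelial-like cells, at 32.2 CPM, and was lower in that class at 1 day, at 15.8 CPM (-1.05 [-1.77 to -0.24]). The class held 21 of its 97 UMIs in kept bladder cells and 59 of its 92 in kept 1-day cells. Col7a1, the anchoring fibril chain below stratified epithelium, was highest in the unnamed cluster 4, at 38.8 CPM at 7 days and 33.1 CPM at 1 day.

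The transmembrane chains and Col28a1 were restricted to few classes in level. Col28a1, known from Schwann cells of peripheral nerve in mouse, had 121, 34.8 and 391 CPM in glia-like cells and was lower at 1 day than in bladder (log2 ratio -3.49 [-3.76 to -3.22]). After thinning each cell to 2500 UMIs, 16.2% of 68 glia-like cells at 7 days, 9.12% of 680 at 1 day and 52.0% of 177 in bladder had a Col28a1 UMI (130, 25 and 110 shallower cells left out), against 36.9%, 17.02% and 53.3% of all cells unthinned, and 1 of 2044, 0 of 1362 and 0 of 2652 thinned urothelial-like cells did. Col23a1 was highest in lymphatic endothelial-like cells, at 91.5, 73.5 and 137 CPM, and was not called there (-0.89 [-1.47 to -0.37]). The 2 lymphatic members called lower at 1 day were Col4a5, at 8.40 against 38.7 CPM (-2.05 [-4.14 to -0.75]), and Col3a1, at 37.8 against 112 CPM (-1.53 [-2.36 to -0.85]). Col13a1 was highest in endothelial-like cells, with 8.69, 3.24 and 27.9 CPM, lower at 1 day than in bladder (log2 ratio -3.06 [-4.05 to -2.29]).

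Urothelial-like cells are not a known source of fibrillar collagen, and free RNA gives UMIs in droplets of cells that do not express a gene. The class was clusters 5, 12 and 28 at 1 day, apart from 2 cells, and clusters 1, 6 and 16 in bladder. Between 1 day and bladder 7 of their 8 measured members were called higher, beside 11% of all genes, and 0 lower, beside 7.09%. Members under 20 CPM in bladder, among them Col1a1, Col4a5 and Col4a6, passed the level filter only through the 1-day library. Col18a1 passed in bladder too and was not called. The direction of these counts thus follows in part from the filter, and they say nothing of the family. Col1a1 had 52.6, 79.5 and 6.65 CPM at 7 days, 1 day and in bladder, which was 1.40%, 2.33% and 0.150% of its level in all other cells of the same library. Dcn, a fibroblast gene, stood at 1.40%, 2.47% and 0.120% by the same measure and Acta2, a smooth muscle gene, at 1.60%, 4.41% and 0.217%, and the part of free RNA in the level and the call of Col1a1 was not tested. Col4a6 stood apart, at 10.8, 21.0 and 5.87 CPM, which was 497%, 2367% and 25.3% of its level in other cells, and was higher at 1 day than in bladder (log2 ratio 1.84 [1.57 to 2.11]). Col4a5 had 16.5, 30.9 and 15.2 CPM (1.03 [0.82 to 1.23] at 1 day over bladder), at 49.7%, 121% and 17.3% of other cells, and with median-of-ratios scaling its log2 ratio was 0.73 and not called. Col18a1 had 59.3, 56.1 and 63.6 CPM and was not called. The median depth of urothelial-like cells was 8327.5, 4834.5 and 21298.5 UMIs, and the share with a Col3a1 UMI after thinning to 2500 UMIs was 7.73%, 8.88% and 2.26%, against 98.3%, 93.6% and 99.6% of fibroblast-like cells.

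The 7-day library was compared with the others by side and as deposited. Each side was picked for nearness to 1 other library, so low counts of calls against that library follow in part from the choice. Such counts, here and below, do not measure how alike the cells are. In assembloid-side fibroblast-like cells 0 of 19 members were called higher and 1 lower than at 1 day, beside 0.409% and 0.427% of all genes, and the member was Col5a3, at 11.1 against 23.9 CPM (-1.11 [-1.51 to -0.68]). In bladder-side fibroblast-like cells 0 of 22 were called either way against adult bladder, beside 0.103% higher and 0.0172% lower. With both sides together, Col6a1 and Col6a2 were higher at 7 days than at 1 day, at 334 against 157 CPM (1.09 [0.95 to 1.23]) and 146 against 69.2 CPM (1.07 [0.87 to 1.29]), beside 2.05% of genes called higher and 0.578% lower. The assembloid-side levels of the 2 genes were 179.8 and 75.4 CPM and the bladder-side levels 1583 and 712 CPM, and neither call held for the assembloid side.

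Against adult bladder, assembloid-side fibroblast-like cells had 3 of 22 members higher and 14 lower, beside 13% and 15.7% of all genes. The 3 were Col4a1 at 1545 CPM, Col4a2 at 691 CPM and Col12a1 at 444 CPM. This comparison shares the bladder library with that of 1-day cells, which had 1677, 744 and 415 CPM of the same genes. In glia-like cells as deposited 6 of 20 members were higher at 7 days than at 1 day and 0 lower, beside 7.86% and 2.59% of genes, with Col5a3 (log2 ratio 3.27 [2.80 to 3.77]) and Col11a1 (2.03 [1.56 to 2.50]) at the top. In assembloid-side glia-like cells (64 cells) 2 of 20 were higher than at 1 day and 2 lower, beside 5.13% and 3.27% of genes. Col12a1 and Col14a1 were higher, at 64.8 against 29.97 CPM (1.12 [0.62 to 1.58]) and 116 against 54.7 CPM (1.09 [0.72 to 1.43]). Col15a1 and Col16a1 were lower, at 38.1 against 83.02 CPM (-1.10 [-1.71 to -0.59]) and 61.0 against 144 CPM (-1.22 [-1.69 to -0.81]). Col28a1 had 53.4 CPM on the assembloid side and 394 CPM on the bladder side.

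In assembloid-side endothelial-like cells (308 cells) 3 of 10 members were higher than at 1 day and 0 lower, beside 1.81% and 1.05% of genes. These were Col3a1, at 95.8 against 34.4 CPM (1.48 [1.19 to 1.78]), Col6a3, at 20.01 against 5.48 CPM (1.85 [1.15 to 2.64]), and Col8a1, at 35.5 against 17.4 CPM (1.02 [0.59 to 1.47]). Col3a1 of 7-day endothelial-like cells stood at 5.80% of its level in all other cells of the library and at 3.19% at 1 day, where Dcn stood at 9.00% and 3.79%, and the part of free RNA was not tested. Col18a1 had 498 CPM on the assembloid side and 110.4 CPM on the bladder side, and Col15a1 17.6 and 119 CPM. Smooth muscle-like cells, of which the 7-day library held 341 (323 of them bladder-side and 0 assembloid-side) and bladder 617, had 0 of 18 members higher at 7 days and 1 lower, beside 0.466% and 0.691%, and the 1 was Col4a6, at 14.7 against 32.1 CPM (-1.08 [-2.12 to -0.26]).

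Like the counts above, those for the other 7-day comparisons cover only members that passed the level filter in at least 1 of the 2 libraries. They were as follows in endothelial-like cells. At 7 days over 1 day there were 4 of 11 members higher and 0 lower (beside 9.63% and 2.44% of genes), and over bladder 4 of 13 members higher and 2 lower (beside 13.7% and 10.5% of genes). Assembloid-side cells over bladder had 7 of 13 members higher and 2 lower (beside 21.8% and 20.9% of genes), with Col4a2 (1.26 [1.16 to 1.36]) and Col18a1 (2.23 [2.10 to 2.36]) among those higher and Col15a1 (-2.59 [-3.02 to -2.22]) and Col13a1 (-4.72 [-7.23 to -3.37]) lower. Bladder-side cells over bladder had 2 of 12 members higher and 0 lower (beside 0.3% and 0.2% of genes), namely Col1a1 (1.28 [0.95 to 1.59]) and Col1a2 (1.03 [0.66 to 1.38]). These 2 rested on 134 and 100 UMIs in 529 bladder-side endothelial-like cells. Bladder-side urothelial-like cells held 685 and 525 UMIs of the same genes, and the part of free RNA was not tested. Fibroblast-like cells at 7 days as deposited had 3 of 22 members higher and 12 lower (beside 10.7% and 13.6% of genes) over bladder. In lymphatic endothelial-like cells 7 days over 1 day gave 0 of 9 members higher and 0 lower (beside 5.93% and 3.84% of genes), 7 days over bladder 0 of 9 members higher and 0 lower (beside 9.18% and 9.64% of genes), and bladder-side cells over bladder 2 of 12 members higher and 0 lower (beside 1.85% and 1.5% of genes). Glia-like cells at 7 days over bladder had 2 of 23 members higher and 12 lower (beside 12.2% and 15.6% of genes). Their assembloid-side cells over bladder had 2 of 23 members higher and 15 lower (beside 15.6% and 19.5% of genes) and their bladder-side cells 0 of 23 members higher and 0 lower (beside 2.99% and 1.9% of genes). Urothelial-like cells at 7 days had 0 of 8 members higher and 0 lower (beside 4.31% and 4.13% of genes) over 1 day and 3 of 4 members higher and 0 lower (beside 1.42% and 0.0198% of genes) over bladder, and their assembloid-side cells 0 of 8 members higher and 0 lower (beside 0.0722% and 0.199% of genes) over 1 day and 4 of 6 members higher and 0 lower (beside 10.4% and 6.98% of genes) over bladder.

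Fibroblast-like cells of bladder fell into clusters 17 and 2, formed without collagen genes, and 9 members differed between them in the same direction in both the 7-day and the bladder library. Of the 7-day cells, 205 of 207 in cluster 17 and 595 of 605 in cluster 2 were bladder-side, so these 7-day values are nearly all from cells whose nearest cells were those of bladder. In bladder, 6 of 23 members were higher in cluster 17 and 3 lower, beside 5.19% and 3.85% of all genes, and in the 7-day library 6 of 23 were higher and 4 lower, beside 8.64% and 5.35%. Col11a1 had 96.0 CPM in cluster 17 against 4.12 CPM in cluster 2 of bladder (4.51 [3.93 to 5.22]), and 117 against 6.08 CPM at 7 days. Col12a1 had 426 against 90.8 CPM in bladder (2.23 [2.08 to 2.38]), and 497 against 87.2 CPM at 7 days. Col23a1, Col16a1, Col4a6 and Col27a1 were also higher in cluster 17, with log2 ratios in bladder of 3.89, 1.28, 1.43 and 1.24. Cluster 2 was the higher one for Col15a1, at 149 CPM in cluster 17 against 599.7 CPM in cluster 2 of bladder (-2.01 [-2.15 to -1.86]). Col6a5, with 1.01 CPM from 3 UMIs in cluster 17 against 39.4 CPM, and Col5a3, with 14.5 against 29.5 CPM, went the same way. The main chains Col1a1, at 13278 against 10191 CPM, and Col3a1, at 9082 against 12883 CPM, were not called. Cluster 17 was led by Pi16, Clec3b and Car3 and cluster 2 by Clec3b, Pi16 and Dpt. These genes were ranked against cells of other classes, so they do not tell the 2 clusters apart. At resolution 0.5 a fibroblast-like cluster with 153 bladder cells, led by Car3, Rbp4 and Hhip, stood apart. Whether cluster 17 mixes such cells with others, and which of them hold its higher members, was not tested.

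**Figure D5:**
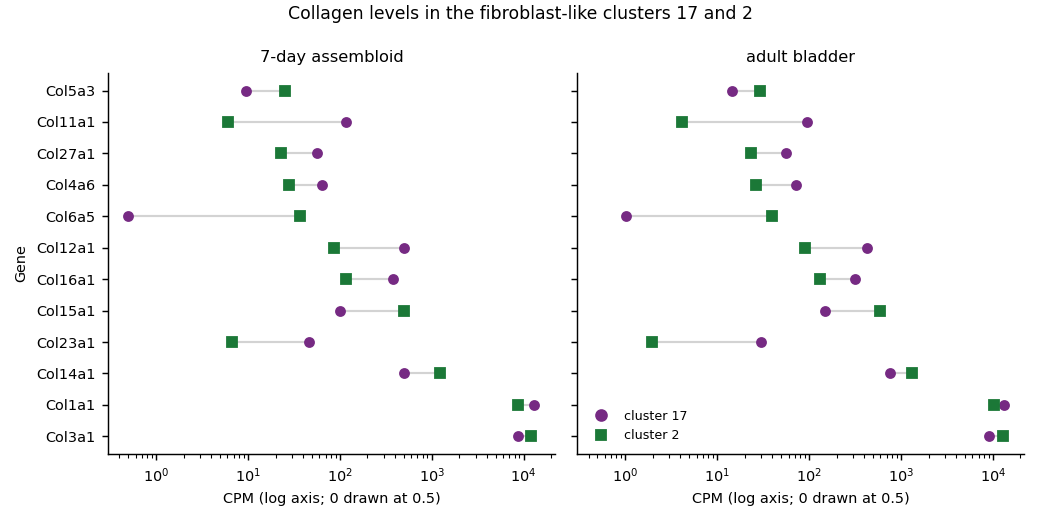
CPM (log axis; a value of 0 drawn at 0.5) of 12 members in fibroblast-like clusters 17 (circles) and 2 (squares), in the 7-day library left and adult bladder right. Col11a1, Col12a1 and Col23a1 lie higher in cluster 17 and Col15a1 and Col6a5 higher in cluster 2 in both libraries, while Col1a1 and Col3a1 lie close together.

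Endothelial-like cells of bladder were clusters 10 (led by Cytl1, Pecam1 and Ly6c1) and 18 (Selp, Aqp1 and Lrg1), and 9 of 11 members were called higher in cluster 10 and 0 lower in bladder, beside 8.04% and 4.68%, with 7 of 12 and 0 at 7 days, beside 10.1% and 5.22%. Here too the 7-day cells were mostly bladder-side, 324 of 331 in cluster 10 and 205 of 215 in cluster 18. Col4a1 had 605 CPM in cluster 10 against 167 CPM in cluster 18 of bladder (1.86 [1.70 to 2.03]), and 549 against 202 CPM at 7 days. Col18a1 had 139 against 43.7 CPM in bladder (1.66 [1.35 to 2.01]), and Col8a1 87.5 CPM against 2 UMIs (6.19 [4.64 to 9.56]). Col15a1, at 115 against 92.3 CPM, and Col13a1, at 30.7 against 22.6 CPM, were called in neither library.

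Clusters with no name held 62.3% of the 1-day cells, so the levels of 3 of them are set beside bladder fibroblast-like cells. These clusters are not named as fibroblasts. Over all libraries, the fibroblast genes Pdgfra, Dcn and Lum summed to 897, 66.0 and 82.7 CPM in clusters 0, 3 and 4. The same genes summed to 26263 and 20097 CPM in fibroblast-like clusters 2 and 17. In cluster 4, 4 of 12 smooth muscle markers were raised. The part of cell type in the differences was not tested. Against bladder fibroblast-like cells, cluster 0 of the 1-day library had 3 of 22 members higher and 14 lower (17% and 20.6% of all genes), cluster 3 had 0 of 22 and 14 (19.8% and 22.1%), and cluster 4 had 1 of 23 and 15 (21.2% and 21.2%). Col3a1 had 3116 CPM at 7 days and 1906 CPM at 1 day in cluster 0, 563 and 560.4 CPM in cluster 3, and 333 and 324 CPM in cluster 4. Col14a1 ran the same way, with 167 and 133 CPM in cluster 0, 7.01 and 7.72 CPM in cluster 3, and 2.51 and 1.78 CPM in cluster 4, and so did Col15a1, with 224 and 201, 4.46 and 6.59, and 1.88 and 1.89 CPM. Col1a1 spanned a smaller range, with 5473 and 4611 CPM in cluster 0, 3153 and 3026 CPM in cluster 3, and 2506 and 2423 CPM in cluster 4. Col4a1 had 1323 and 1359 CPM, 625 and 647 CPM, and 554 and 542 CPM in the same clusters. Col8a1 lay in the 3 clusters from 187 to 384 CPM. In cluster 3 and in cluster 4, 0 of 16 members were called between 7 days and 1 day, beside 0.0567% and 0.0184% of genes called higher, and 0.0189% and 0% lower. In cluster 0 the only one of 19 was Col18a1, at 47.8 CPM at 7 days against 19.1 CPM at 1 day (1.33), beside 0.76% of genes higher and 0.297% lower. In the cycling cluster 8, 2 of 19 members were lower at 7 days and 0 higher, beside 0.443% and 1.91% of genes, Col5a3 at 16.3 against 63.9 CPM (-1.97) and Col15a1 at 70.1 against 145 CPM (-1.05).

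Genes that make, cut, cross-link and bind collagen were read in 4 lists. Of 20 genes that modify chains in the endoplasmic reticulum, 17 were measured in fibroblast-like cells between 1 day and bladder, 1 was higher and 2 lower, beside 15.6% and 16.6% of all genes, with a median log2 ratio of 0.22, against 0.13 over all genes. The medians of the lists that follow were -1.02 for propeptide cleavage, 0.98 for cross-linking and 0.13 for receptors. The 1 was P4ha2, a prolyl hydroxylase, at 74.7 against 29.7 CPM, and the 2 were the chaperone Fkbp7, at 72.3 against 205 CPM, and P3h3, a prolyl hydroxylase, at 70.9 against 188 CPM. Of 8 propeptide cleavage genes 4 were measured and 2 were lower, the enhancers Pcolce2, at 22.5 against 311 CPM, and Pcolce, at 327 against 698 CPM. Of 5 cross-linking oxidases 4 were measured and 2 were higher, Loxl2 at 451 against 106 CPM (2.09) and Lox at 428 against 127 CPM (1.75). Of 10 genes of collagen receptors and uptake 6 were measured, 3 higher and 3 lower. Itga1, the type IV collagen receptor chain, was higher, at 78.9 against 10.6 CPM, as was its partner Itgb1, at 783 against 299 CPM, and Itga11, a fibrillar collagen receptor chain, was lower, at 7.26 against 25.2 CPM. The uptake receptor Mrc2 was lower too, at 58.1 against 139 CPM. Between assembloid-side 7-day and 1-day fibroblast-like cells 0 genes of the 4 lists were called, beside 0.409% of all genes higher and 0.427% lower. The assembloid side was picked for nearness to 1-day cells, so this count does not measure likeness.

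In glia-like cells, 1 of 18 measured modification genes was higher at 1 day than in bladder and 3 were lower, beside 14.7% and 20.1% of all genes, among them P4ha1, a prolyl hydroxylase, at 50.6 against 179.7 CPM. The list medians were -0.12 for modification, 0.31 for cleavage, 1.27 for cross-linking and -0.67 for receptors, against 0.05 over all genes. Of 3 measured cleavage genes 1 was higher, the procollagen proteinase Bmp1, at 469.8 against 60.3 CPM, and 1 lower, Adamts2, which cuts the other end, at 18.4 against 89.8 CPM. Of 3 measured oxidases 2 were higher, Lox at 64.8 against 3.41 CPM and Loxl1 at 42.5 against 17.1 CPM. Of 5 measured receptor genes, Ddr2 and Itgb1 were higher and Itga2 and Itga1 lower, with Itga1 at 39.9 against 217 CPM. Itga1 was lower also in endothelial-like cells, at 26.9 against 229.9 CPM, and its difference in direction from fibroblast-like cells was not tested.

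Over the same 52 sums, levels of Col1a1 went with those of Col1a2 (r = 0.995), Col6a1 with Col6a2 (0.989), Col1a1 with Col3a1 (0.921) and Col6a1 with Col6a3 (0.901). The ratio of Col1a1 to Col1a2 UMIs lay between 0.899 and 2.33 over 33 sums of a class or unnamed cluster, while that of Col3a1 to Col1a1 ran from 0.133 to 3.36 over 34. In the 7-day cells of the pericyte-like cluster 24, Col1a1 to Col1a2 was higher, at 2.95 [2.69 to 3.23]. The 5 genes outside the family whose log2 levels were most like the summed fibrillar chains were Pcolce (r = 0.937), Bicc1 (0.926), Meg3 (0.921), Mfap5 (0.919) and Ctsk (0.917). These are descriptions over sums that share libraries, depth and cell source.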

How the data were processed

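The deposited values are raw UMI counts for each gene in each barcode, made by the authors with Cell Ranger 3.1.0 per the file headers, on builds GRCh38, mm10 and hg38 per the submitters' processing notes. Of 9548, 9039 and 8642 barcodes at 7 days, 1 day and in bladder, those under 90% mouse UMIs, under 500 genes, over 20% mitochondrial UMIs or called doublets by Scrublet (2.40%, 3.27% and 3.22%) were dropped.

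Cells were clustered with scanpy 1.11.5 (2000 variable genes without collagens, 30 components, 15 neighbours, Leiden resolution 1), and classes were named from marker lists. Cluster 19, led by Crabp1 and Sprr2k, was kept unnamed although it passed as smooth muscle, a choice made after seeing the data. Counts were summed per class and library and scaled to CPM. Log2 ratios used an offset of 0.5 counts, and exact 95% intervals took UMIs as independent. The comparison step was tested on simulated data.

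Named genes were members with at least 20 CPM in a class or unnamed cluster of at least 50 cells, up to 4 genes per processing list with the largest absolute log2 ratio, and the 5 genes most like the fibrillar sum. Members and lists were chosen with earlier results of these data known. Other tools were matplotlib 3.10.9, igraph 0.11.9, leidenalg 0.10.2, scikit-learn 1.9.0, scipy 1.17.1, pandas 2.3.3, anndata 0.12.19, numpy 2.4.6 and Python 3.11.15.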

Additional observations from a re-analysis of the deposited data

Results flagged for a closer look

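For 11 members the call between 1-day assembloids and adult bladder went in opposite directions in different classes, and the difference between classes was not tested. All values here are log2 ratios of 1 day over bladder. Col4a1 was higher in urothelial-like cells at 4.23 and lower in glia-like cells at -1.57, and Col4a2 was higher in fibroblast-like cells at 1.89 and lower in glia-like cells at -1.29. Col4a5 and Col4a6 were higher in urothelial-like cells, at 1.03 and 1.84, and lower in fibroblast-like cells, at -2.51 and -5.13. Col1a2 was higher in urothelial-like cells at 3.50 and lower in fibroblast-like cells at -1.27, and Col3a1 was higher in urothelial-like cells at 1.94 and lower in glia-like cells at -3.23. In urothelial-like cells of the 7-day, 1-day and bladder libraries Col1a2 stood at 1.31%, 2.30% and 0.131% of its level in all other cells, Col3a1 at 1.99%, 3.30% and 0.196% and Col4a1 at 1.41%, 2.75% and 0.299%, and the part of free RNA was not tested.

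Col11a1 was higher in mesothelial-like cells at 4.87, against 1 UMI in bladder, and lower in glia-like cells at -3.53. Col27a1 was higher in endothelial-like cells at 2.26 and lower in glia-like cells at -2.45. Col12a1 was higher in fibroblast-like cells at 1.00 and lower in glia-like cells at -1.66. Col18a1 was higher in endothelial-like cells at 1.97 and lower in mesothelial-like cells at -4.14. Col8a1 was higher in glia-like cells at 3.09 and lower in endothelial-like cells at -1.72.

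Cells with mostly human UMIs, which no comparison used, also held collagen UMIs. Barcodes with at least 90% human UMIs numbered 138 at 7 days, 115 at 1 day and 147 in bladder, of which 74, 115 and 0 had at least 500 human genes. In the cells with 500 genes human collagens were 0.0935% of human UMIs at 7 days and 0.0764% at 1 day, led by COL8A1 at 493 and 360.5 CPM.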

How the results depend on the processing

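No paired analysis was possible because each group had 1 library. Of 423 values under other settings (counts, ratios and fibroblast-like shares), 353 were kept, 40 moved, 10 reversed, 13 passed the threshold newly and 7 no longer passed. Ratios among the 353 kept their direction and their side of the threshold. Counts of called members among them changed by less than 2-fold, and shares stayed within the counting interval. Collagen shares of endothelial-like, glia-like and urothelial-like cells were counted apart, and 29 of these values stayed within that interval and 28 moved. The cause was not tested. Under any setting, no value was made for a class in a library where fewer than 50 cells remained.

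The collagen share of fibroblast-like cells at 7 days was 2.83% as a mean of cells, 2.12% with cells classed by their own markers, 2.13% at resolution 0.5, 2.26% with at least 1000 genes, 2.21% with doublets kept and 2.09% on the assembloid side. At 1 day it was 1.96%, 1.51% and 1.52% under the first 3 and 1.93% with doublets kept, and in bladder 3.69% as a mean of cells, 4.03% by own markers, 4.04% with at least 1000 genes and 3.69% with doublets kept.

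In fibroblast-like cells at 7 days over 1 day, 0 members were higher on the assembloid side, and 1 was lower there and with an offset of 5 counts, at least 5 CPM, own markers, resolution 0.5 or the stromal pool of clusters 0, 2, 7, 8 and 17. The type IV log2 ratio reversed to 0.0063 with own markers and 0.012 in the pool, where the fibrillar ratio over bladder was -1.11.

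In endothelial-like cells at 1 day over bladder, at least 100 CPM left 2 higher and 1 lower, and at least 5 CPM gave 7 lower. The fibrillar ratio was 1.16 as a mean of cells and 1.92 with doublets kept. At 7 days over 1 day, 0 were higher at 100 CPM and 9 at 5 CPM. The fibrillar ratio reversed to -0.0727 as a mean of cells, -0.20 by own markers and -0.32 with doublets kept, and the type IV ratio to -0.34 as a mean of cells. Over bladder at 7 days, 1 was higher and 1 lower at 100 CPM and 7 higher on the assembloid side. The fibrillar ratio was 1.09, 1.60 and 1.03 as a mean of cells, with doublets and on that side, where the type IV ratio was 1.12.

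In glia-like cells at 1 day over bladder the fibrillar ratio was -0.84 by own markers and -0.47 with doublets, and the type IV ratio -0.64 with doublets. At 7 days over 1 day, 11 were higher at 5 CPM and 2 on the assembloid side, and 1 was lower by own markers and at resolution 0.5 and 2 on that side. The fibrillar ratio reversed to -0.000834 by own markers, -0.11 with at least 1000 genes, -0.0481 with doublets and -0.19 on that side, and the type IV ratio was 1.46 as a mean of cells. Over bladder at 7 days, 1 was higher at 100 CPM. The fibrillar ratio was -1.19 with at least 1000 genes and -1.22 on that side, and the type IV ratio -1.002 at resolution 0.5, -1.11 with at least 1000 genes and -1.14 on that side.

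In urothelial-like cells 0 were higher at 100 CPM at 1 day over bladder, where the fibrillar ratio was 0.32 with doublets. At 7 days over 1 day, 1 was lower with an offset of 5 and without shared barcodes. Over bladder at 7 days, 0 were higher at 100 CPM and 7 at 5 CPM. The fibrillar ratio was 0.30 with doublets, and the type IV ratio 0.94 as a mean of cells and 0.75 with doublets.

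Median-of-ratios scaling, run for these 4 classes, subtracted 0.28 from log2 ratios of 1 day over bladder in fibroblast-like, 0.25 in endothelial-like and 0.30 in urothelial-like cells, and -0.24 from those of 7 days over 1 day in urothelial-like cells. It made Col1a1 (-1.27) in fibroblast-like and Col3a1 (-1.20) in endothelial-like cells lower at 1 day than in bladder, and Col4a1 (-1.03) lower at 7 days in glia-like cells. It ended 4 calls of higher, of Col12a1 (0.72) in fibroblast-like, Col1a1 (0.78) in endothelial-like and Col4a5 (0.73) in urothelial-like cells at 1 day over bladder and of Col1a2 (0.98) in endothelial-like cells at 7 days over bladder. With 1 library a group, nothing measures the spread between animals or constructs. The floor of 3 UMIs in a class was a fixed setting and not a measured limit of detection. Levels near or under it are uncertain at this depth.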
